A study of Mus musculus with 35 samples.

Results

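Neural cells were compared directly with mural cells, the cells that wrap the outside of blood vessels, in bulk RNA-seq of the embryonic mouse brain. The comparison uses 6 of the 35 samples of the series, namely 3 libraries of each population, and these were chosen by the population in their labels. The study took neural, mural, endothelial and microglial cells from E14.5 brains by antibody staining and FACS, a method it named EMBRACE, and each population was sequenced in bulk and as single cells. All 6 libraries came from E14.5 brain, with no genetic change or treatment in their labels and a strain not given in the sources used here, and same-numbered libraries (N-340 and Mu-340, N-343 and Mu-343, N-346 and Mu-346) were taken as 1 brain each. Neural cells were gated as negative for CD45, CD41, CD11b, PECAM1, CD102 and PDGFRβ and were not selected by a marker of their own. Mural cells were gated as high for PDGFRβ and negative for the other markers. Since *Pdgfrb* defined the gate, its difference is a check of the sort and not a finding.

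The sides were not made alike. Neural RNA was turned into libraries with the TruSeq kit, and mural RNA went through SMART-Seq v4 amplification and Nextera XT, so in bulk the kit and the population cannot be told apart. Many of the bulk results were therefore set beside wild-type single cells of the same age sorted through a neural gate (negative for all markers) and a mural gate, for which a single protocol, mCEL-Seq2, was used. There, 123 neural and 210 mural cells with over 1500 transcripts were summed per gate on each of 3 plates, where plate 3 held 14 and 10 cells. The gates lay in different libraries of a plate. Their markers were not quite those of the bulk sort. The single-cell mural gate was labelled high for PDGFRβ, low for PECAM1 and negative for CD45 and CD41. For the neural single cells the paper lists no CD11b among the negative markers. The neural wells of plate 3 carry a library number that no label of that plate has, and they were given to the remaining library of the plate, whose file bears that number. Cells of different libraries share their 192 barcodes by design. In bulk samples, fewer cells of a type and less RNA per cell cannot be told apart.

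Neural tissue at this age consists of radial glia, which divide at the ventricle and are the stem cells of the brain, of short-lived intermediate progenitors and of young neurons that migrate and grow axons. Mural cells comprise pericytes and vascular smooth muscle cells. They are recruited to growing vessels by PDGF-B from endothelial cells, lie within the basement membrane that they share with the endothelium, and set vessel tone and barrier function.

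The promoters of *Myl9*, *Myl6* and *Neurod2* are shown because they hold a motif that was searched for. These genes belong to the contractile genes and to the excitatory lineage factors described below. The sequences are the 250 bases before the RefSeq start on GRCm38.p6, written 5′ to 3′ in the direction of the gene, and positions count back from -1 at the base before the start. Capitals mark a CArG box, the site of serum response factor, in *Myl9* and *Myl6*, and the E-box CAGATG, a site of neuronal bHLH factors, in *Neurod2*.
Myl9, chr2:156775214-156775463, plus strand: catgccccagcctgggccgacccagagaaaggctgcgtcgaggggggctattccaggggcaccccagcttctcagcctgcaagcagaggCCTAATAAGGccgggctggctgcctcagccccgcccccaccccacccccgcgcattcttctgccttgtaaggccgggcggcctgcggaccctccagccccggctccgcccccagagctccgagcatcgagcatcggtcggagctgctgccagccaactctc
Myl6, chr10:128493010-128493259, minus strand: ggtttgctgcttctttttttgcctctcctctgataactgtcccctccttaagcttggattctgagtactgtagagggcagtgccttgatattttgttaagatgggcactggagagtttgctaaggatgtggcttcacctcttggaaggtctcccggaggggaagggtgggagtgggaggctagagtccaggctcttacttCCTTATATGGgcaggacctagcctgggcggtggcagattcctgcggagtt
Neurod2, chr11:98329646-98329895, minus strand: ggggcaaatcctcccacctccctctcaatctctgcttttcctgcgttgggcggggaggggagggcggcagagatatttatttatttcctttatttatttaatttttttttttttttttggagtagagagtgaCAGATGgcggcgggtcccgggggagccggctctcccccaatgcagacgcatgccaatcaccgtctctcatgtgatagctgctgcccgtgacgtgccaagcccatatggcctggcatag
The box of *Myl9* lies from -161 to -152, that of *Myl6* from -50 to -41 and the E-box of *Neurod2* from -118 to -113. Searching both strands, a CArG box was present in 2 of the 11 contractile gene promoters in the table and in 1.62% of 27025 promoters. CAGATG was present in 3 of 8 promoters of excitatory lineage factors, those of *Neurod2*, *Slc17a6* and *Mef2c*, and in 16.3% of all promoters. A match of letters is not a shown site.

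A second set of sequences belongs to microRNA host transcripts, which differed between the populations in both directions. Their mature sequences are from RefSeq on GRCm38.p6, and capitals mark the seed, bases 2 to 8. The transcripts that host them were measured, and the mature microRNAs were not.
mmu-miR-9-5p in Mir9-3hg, chr7:79505279-79505301, plus strand: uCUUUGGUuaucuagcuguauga
mmu-miR-22-3p in Mir22hg, chr11:75463772-75463793, plus strand: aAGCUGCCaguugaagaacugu
mmu-miR-99a-5p in Mir99ahg, chr16:77598940-77598961, plus strand: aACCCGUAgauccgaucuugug
mmu-let-7c-5p in Mir99ahg, chr16:77599672-77599693, plus strand: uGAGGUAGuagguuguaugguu
mmu-miR-125b-5p in Mir99ahg, chr16:77646279-77646300, plus strand: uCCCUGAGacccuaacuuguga
No seed is shared among these 5 microRNAs.

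The bulk libraries held between 18900569 and 98414914 reads on genes. Values below are the deposited normalized counts, given in the order of the libraries above, and single-cell values are transcripts scaled to the total of the summed gate (CPM) on plates 1, 2 and 3. Differences are log2 of neural minus mural, so that a negative value is higher in mural cells. In bulk they were fitted with limma on log2(normalized count + 1) and in the single-cell sums with edgeR's quasi-likelihood test, each with its standard error and a Benjamini-Hochberg adjusted p over all genes tested. Calls required that the adjusted p be below 0.05 and the difference exceed 2-fold. The p-values measure the spread between 3 libraries or 3 plates per side.

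Both populations were set apart in a large share of the transcriptome. Of 18188 genes tested in bulk, 5704 (31.4%) were called higher in neural cells and 4606 (25.3%) in mural cells. Over 10-fold, the numbers were 2671 (14.7%) and 1835 (10.1%). The 3 neural libraries lay above the 3 mural ones without overlap for 41.3% of genes and below them for 34.5%. In the single cells, 1086 (16.3%) of 6680 genes were called higher in neural and 1014 (15.2%) in mural cells. Among 6377 genes tested in both assays, 815 (12.8%) were called higher in neural cells by each assay and 726 (11.4%) in mural cells. A further 2070 were called in bulk alone and 438 in the single cells alone, and 57 (0.894%) were called in opposite directions. The median bulk difference over all genes was 0.249. The neural count in the single cells fell to 639 without plate 1, to 472 without plate 2 and to 700 under DESeq2, and the mural counts were then 825, 689 and 846. Without plate 1 the numbers shared by both assays were 515 neural and 599 mural genes, without plate 2 they were 405 and 521, and without plate 3 they were 1025 and 1003.

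**Figure D1:**
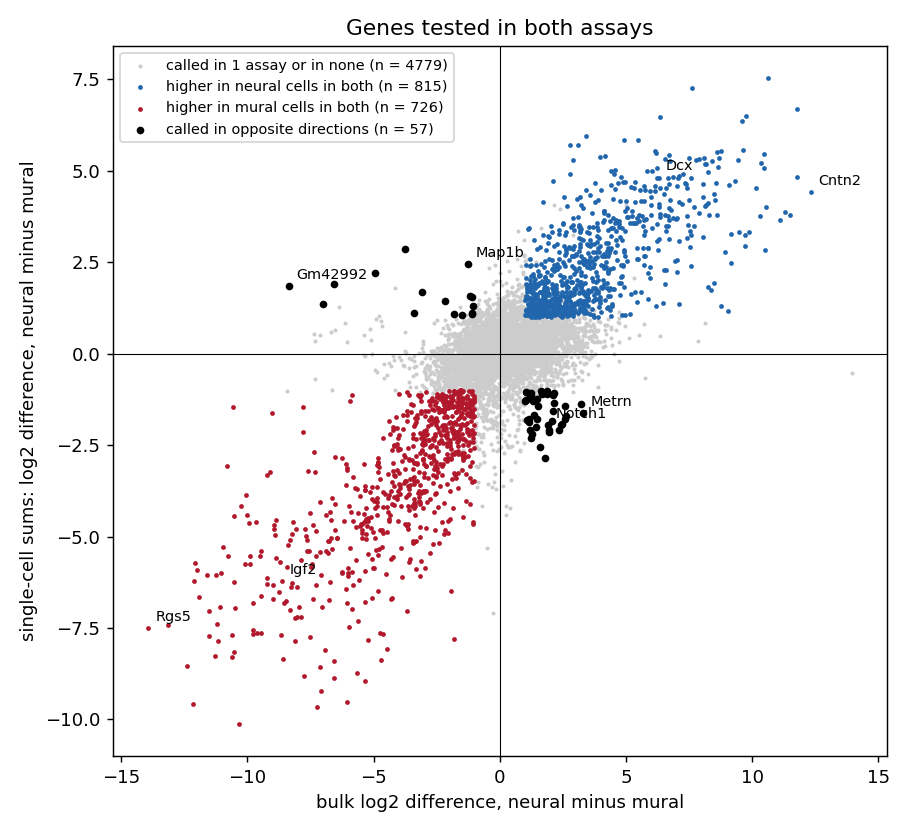
Each point is 1 of the 6377 genes tested in both assays, with its bulk log2 difference (neural minus mural) on the x axis and that of the single-cell sums on the y axis. Blue and red points are the 815 and 726 genes called the same way in both assays, black points the 57 called in opposite directions, and grey points the rest.

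Among genes called in both assays, the one furthest towards neural cells in bulk was *Cntn2*, an adhesion molecule of growing axons (ENSMUSG00000053024, chromosome 1 from 132509427 to 132543256 on mm10). It was at 21764, 21134 and 25819 in neural and at 0, 1.14 and 39.4 in mural libraries. The neural values lay far above, while the mural ones differed widely among themselves (log2 difference 12.33 ± 1.36, limma adjusted p = 0.00046). The single cells held 242, 391 and 208 CPM in the neural and 7.91, 17.7 and 13.7 in the mural gate (4.43 ± 0.35, adjusted p = 4.2e-09, edgeR). *Reln*, which encodes the layering signal reelin, was at 7218, 5788 and 8461 against 0, 1.14 and 5.64 (log2 difference 11.51 ± 0.70, adjusted p = 4.6e-05). *Miat*, a long noncoding RNA of the nucleus, was the most abundant of the 12 leading neural genes and stood at 56522, 52489.6 and 47790.2 against 17.9, 14.8 and 42.3 (log2 difference 11.12 ± 0.39, adjusted p = 9.4e-06). In each of these the neural libraries lay above the mural ones, and the single-cell differences of *Reln* and *Miat* were 3.80 and 3.67.

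A receptor subunit stood among the leading 12. *Grik3*, a kainate receptor subunit, was at 3238, 3176 and 3417 in neural libraries and at 0, 1.14 and 0 in mural ones. The 1 mural read makes this a ratio of 14072 (2525 to 555828) with its 95% counting interval. *St8sia3*, a sialyltransferase, was at 1550.4, 1559 and 1632 in neural libraries and had no mural read, so it was at least 2228-fold higher against a floor of 3 reads over the group. Also among them were *Tub*, *Islr2*, *Dapk1*, *Nyap1* and *L1cam*, with differences between 10.48 and 11.78 in bulk, and between 2.84 and 6.68 in the cells.

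Among genes called in both assays, those furthest towards mural cells were led by *Rgs5*, a regulator of G-protein signalling and a classical pericyte gene (ENSMUSG00000026678, chromosome 1 from 169655501 to 169695813). It was at 26.7, 45.4 and 34.9 in neural and 548316, 557899 and 579164 in mural libraries. The mural libraries lay close to each other, and the difference was -13.93 ± 0.19 (limma adjusted p = 2e-06). In the single cells it was at 57.6, 18.9 and 21.9 against 6394, 6971 and 6156 CPM, a difference of -7.49 ± 0.37 (edgeR adjusted p = 2.4e-11). *Kcnj8* and *Abcc9*, which encode the pore and the sulfonylurea receptor of the vascular KATP channel, were both among the leading genes. *Kcnj8* was at 2.67, 3.88 and 3.96 against 41847, 38245 and 43207 (log2 difference -13.17 ± 0.18, adjusted p = 2e-06). *Abcc9* was at 9.35, 12.2 and 18.2 against 39438, 38931 and 42589 (log2 difference -11.51 ± 0.24, adjusted p = 3.8e-06).

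The forkhead factor *Foxs1* had 1 neural read and stood at 2633, 2617 and 2950.1 in mural libraries, a ratio of 17179.7 (3083 to 678619). *Adap2*, a GTPase-activating protein, was at 1.34, 1.11 and 1.85 against 10569, 11239 and 11229.5 (log2 difference -12.16 ± 0.22, adjusted p = 3.1e-06). Its antisense neighbour *Adap2os* had no neural read and was at 2395, 3099 and 3505 in mural libraries, at least 6339-fold higher. Whether strand was used in counting is not given in the sources used here, so reads of this pair cannot be told apart. *Car4*, a carbonic anhydrase at the cell surface, was at 0, 1.66 and 1.06 against 9742, 8966 and 10161 (log2 difference -12.41 ± 0.41, adjusted p = 8.3e-06). *Emcn*, commonly used as an endothelial gene, was at 5508, 4466 and 4967 in mural libraries with 1 neural read. The remaining 4 genes of the leading 12 were *Tmem45a*, *P2ry14*, *Dmp1* and *Fam162b*, whose mural values lay between 3367 and 8787. All 12 were called in the single cells, with differences from -9.58 to -5.73.

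**Figure D2:**
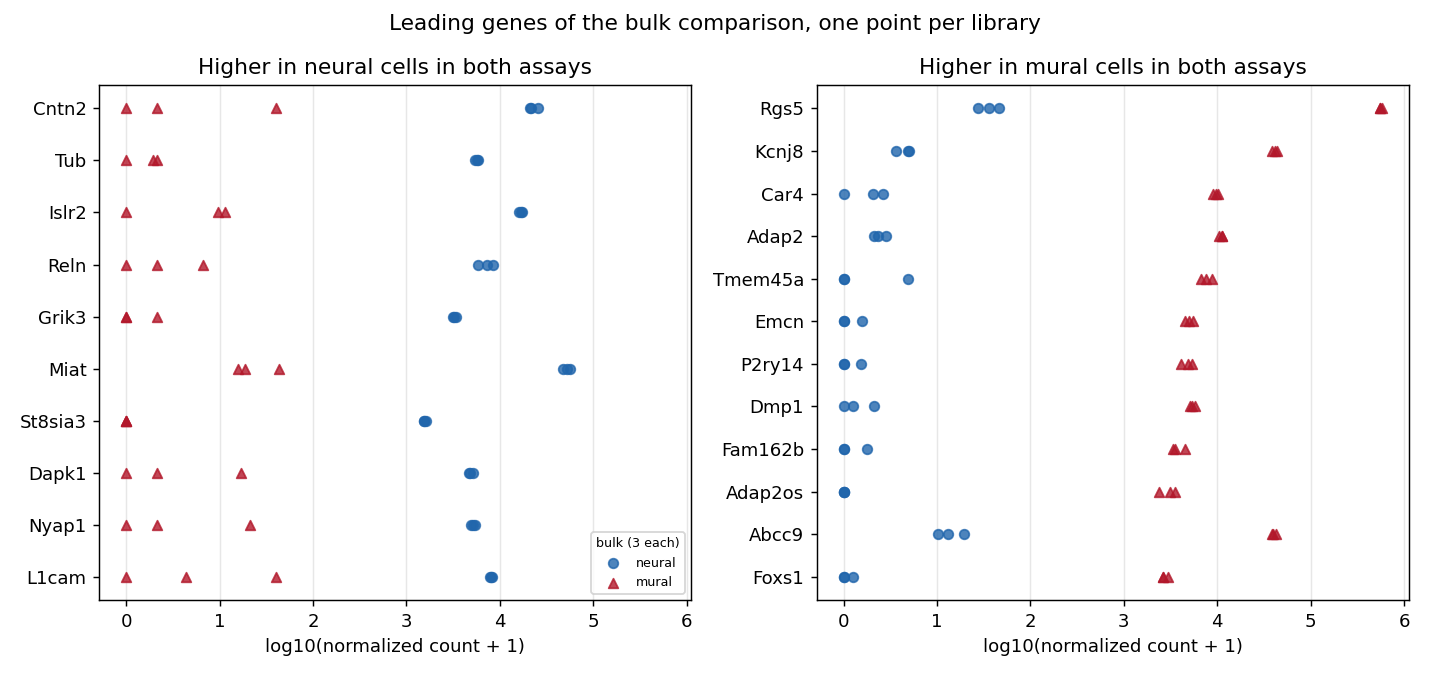
Bulk values of 10 of the 12 leading neural genes and of the 12 leading mural genes among those called the same way in both assays, as log10(normalized count + 1) with 1 point per library, circles for neural and triangles for mural cells. The 3 and 3 libraries are apart for every gene drawn, as the choice of genes required, and mural values of *Cntn2* and *L1cam* scatter from 0 to 39.4.

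Lists of genes were then read by role, each against the shares called over all genes. These were 31.4% neural and 25.3% mural in bulk, and 16.3% and 15.2% in the single cells. Among 18 genes of the neuronal cytoskeleton and growth cone, 16 were called higher in neural cells, with a median difference of 4.38 (all genes 0.249), and 15 of 16 tested in the single cells were. *Tubb3*, the neuronal beta-tubulin, was at 30178, 31328 and 34478 against 928, 1373 and 1027 (log2 difference 4.87 ± 0.16, adjusted p = 8.1e-06). *Dpysl5*, a collapsin response mediator, was at 18211, 18677 and 19337 against 118, 116 and 186 (log2 difference 7.09 ± 0.20, adjusted p = 6.1e-06). *Tubb2b*, whose reads can be shared with a near-identical copy, was at 68798, 67474 and 72706 against 5690.3, 5003 and 3917. *Ncam1*, a general neural adhesion molecule, was not called, with values of 10801, 10591 and 10789 against 19899, 15275 and 18374 and 0.14 in the cells.

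*Map1b*, a microtubule protein of growing axons, went against its list. In bulk it was called higher in mural cells, at 37943, 31997 and 44332 against 105621, 118179 and 57911 (log2 difference -1.25 ± 0.29, adjusted p = 0.0101). In the single cells it was at 1768, 2006 and 1525 against 359.8, 401 and 179 CPM, higher in neural cells (2.45 ± 0.26, adjusted p = 2.5e-07). Under quantile normalization of the bulk libraries its difference was -0.34 and was not called.

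Of 14 genes of synaptic vesicles and release, 13 were called higher in neural cells (median 4.18) and none in mural cells, and 7 of 8 in the cells. *Snap25*, a SNARE of vesicle fusion, was at 1936, 1777 and 1816 against 105, 3.42 and 7.51 (log2 difference 6.86 ± 1.18, adjusted p = 0.00296). *Syn1*, which tethers vesicles, was at 1807, 1783 and 1731 against 9.61, 30.8 and 3.76 (log2 difference 7.24 ± 0.69, adjusted p = 0.00025). The SNARE partner *Stx1a* was at 791, 843 and 877 against 706, 413 and 720.4 and was not called.

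Of 14 neuronal RNA-binding proteins, 13 were called higher in neural cells in bulk (median 4.30), and 12 of 13 in the cells. *Srrm4*, which drives inclusion of neuronal microexons, was at 5408, 5415 and 6138 against 71.7, 63.9 and 85.5 (log2 difference 6.25 ± 0.16, adjusted p = 4.9e-06). *Rbfox2*, a splicing factor found in many tissues, was at 15366, 15330.4 and 16004 against 2169, 1398 and 1987, and it still differed by 3.10 in bulk and 1.36 in the cells. *Ptbp2*, the neuronal polypyrimidine tract protein, was higher by 2.52 and 2.50. Its relative *Ptbp1*, looked at after its values were seen, was at 5921, 6213 and 6481 against 2768, 2826 and 3995 in bulk, with 0.98 below the 2-fold threshold (called neural without Mu-346, at 1.15, or N-340, at 1.01), and was called higher in mural cells in the single cells (-1.31). The exception of the list was *Qk*, a splicing regulator, at 11033, 11091 and 11046 against 23962, 23951 and 19318 (log2 difference -1.01 ± 0.10, adjusted p = 0.00023). That call was lost without Mu-340 or Mu-343 (-0.96 in each case), under quantile normalization (-0.81) and after a correction for GC content chosen once the data had been seen (-0.33).

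Genes of radial glia were called on both sides. Of 14 genes of radial glia, 9 were called higher in neural cells (median 1.79) and 2 in mural cells in bulk, and of 11 in the single cells 6 and 2. The Notch ligand *Dll1* was at 3963, 4001 and 4057 against 174, 6.85 and 4.7 (log2 difference 7.66 ± 1.32, adjusted p = 0.00299). *Nes*, an intermediate filament of stem cells, was at 10845, 10826 and 11359 against 6044, 6032 and 4413. It was called in bulk by a narrow margin (1.02), which was lost without Mu-346 (0.87) or N-346 (0.99), under edgeR (0.94), under DESeq2 (0.95) and after the GC correction (0.53), and it was not called in the cells (-0.60). *Tnc*, a matrix protein of radial glia, was at 2560.0, 2826 and 3782 against 5.24, 366 and 139.9. Its call was lost without any 1 of the neural libraries, with the difference between 5.29 and 5.57.

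The radial glial genes called higher in mural cells were *Hes1* and *Fabp7* in bulk and *Hes1* and *Notch1* in the cells, where *Notch1* was neural in bulk (1.93 in bulk and -1.95 in the cells). *Hes1*, a target of Notch signalling, was at 815, 812 and 763 against 7886, 8009 and 9588 (log2 difference -3.41 ± 0.10, adjusted p = 7.2e-06), and in the cells at 39.9, 30.8 and 0 against 322, 342 and 412 CPM (-3.48 ± 0.33, adjusted p = 3.9e-08). *Fabp7*, a fatty acid binding protein, was at 7006, 7758 and 8042 against 27589, 34842 and 18397 (log2 difference -1.78 ± 0.23, adjusted p = 0.00093), while the cells showed 453, 377 and 528 against 721, 252 and 151 CPM (0.19 ± 0.36, adjusted p = 0.72). *Hes1* was thus called the same way in both assays and *Fabp7* in bulk alone.

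Of 12 genes of intermediate progenitors and early neurons, 10 were called higher in neural cells (median 5.70) and 1 in mural cells, and of 8 in the single cells 7 and 1. The zinc finger factor *Insm1* was at 5766, 5427 and 6068 against 2.62, 24 and 40.4 (log2 difference 8.53 ± 0.90, adjusted p = 0.00038), and the proneural *Neurog1* had no mural read and was at least 381-fold higher in bulk. In the cells *Neurog1* could not be tested, at 8.86, 16.6 and 0 against 14.3, 0 and 0 CPM, with the mural gate higher on plate 1. *Sox11*, a factor of young neurons, was abundant on both sides, at 39890.0, 37294 and 38911 against 17425, 23249.8 and 13511 (log2 difference 1.13 ± 0.19, adjusted p = 0.00284), a call lost without Mu-346 (0.94), and in the cells it differed by 3.41. *Btg2*, an antiproliferative gene, was higher in mural cells in both assays (-1.19 in bulk and -1.33 in the cells), though in bulk not after the GC correction (-0.97).

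Excitatory and GABAergic lineage genes both separated. Of 10 excitatory lineage factors 9 were higher in neural cells (median 5.84), and of 12 GABAergic genes 11 (median 7.15). In the cells these were 6 of 7, with 1 called mural, and 5 of 6. *Tbr1*, a factor of deep-layer neurons, was at 5874, 5949 and 6175 against 46.3, 199 and 2.82, *Neurod6* at 8663, 9134 and 9891 against 134, 1082 and 566 and *Dlx1*, of interneuron precursors, at 7350.1, 7518 and 8243 against 66.4, 2.28 and 87.3. *Slc32a1*, the vesicular GABA transporter, was at 864, 870.0 and 907 with no mural read and was at least 1241-fold higher, and was at 24.4, 33.1 and 0 against 0, 3.54 and 0 CPM in the cells, where it could not be tested. The exception was *Mef2c*, which also acts in muscle and vessels, at 1059, 945 and 1068 against 10105, 10256 and 10693 (log2 difference -3.34 ± 0.081, adjusted p = 4.7e-06) and -2.33 in the cells.

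Of the 14 pericyte markers, 13 were called higher in mural cells, with a median of -10.3, and 11 of 11 in the single cells. *Vtn*, the adhesive glycoprotein vitronectin, was at 21.4, 21 and 19.5 against 48345, 46326 and 58720.1 (log2 difference -11.20 ± 0.13, adjusted p = 2e-06). *Higd1b* had no neural read and stood at 6744, 11415 and 10144 in mural libraries, at least 19937-fold higher. It could not be tested in the cells, at 2.21, 0 and 0 against 114, 129 and 13.7 CPM. *Mcam*, an adhesion molecule, was at 836, 805 and 801 against 10157, 8498 and 11719 (log2 difference -3.62 ± 0.13, adjusted p = 1e-05). The gated *Pdgfrb*, which is in both counts, was at 231, 245 and 304 against 12456, 10874 and 15771.

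*Notch3*, the Notch receptor of mural cells, was the exception among the pericyte markers. In bulk it was at 2372, 2276 and 2457 in neural and 1903, 1558 and 2595 in mural libraries, and the groups overlapped (log2 difference 0.26 ± 0.19, adjusted p = 0.27). In the single cells it was at 22.1, 16.6 and 10.9 against 451, 402 and 288 CPM, a difference of -4.42 ± 0.32, adjusted p = 1.5e-09. After the GC correction, the bulk difference was -1.21 and was called higher in mural cells.

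Of 12 contractile genes tested, 10 were called higher in mural cells (median -5.12), and 8 of 8 in the cells. *Cald1*, which binds actin and myosin, was at 1838, 1728 and 1809 against 98650.5, 98654 and 81359.5 (log2 difference -5.69 ± 0.091, adjusted p = 2.8e-06). *Myl9*, a regulatory myosin light chain whose promoter is printed above, was at 103, 119 and 131 against 33861, 37119 and 35158 (log2 difference -8.23 ± 0.12, adjusted p = 2e-06). *Tagln*, an actin-binding protein of smooth muscle, was at 40.1, 35.4 and 50.2 against 21, 41.1 and 71.4, and the smooth muscle myosin *Myh11* was at 9.35, 4.98 and 6.87 against 239.9, 2.28 and 6.57, high in 1 mural library alone. *Tagln* and *Myh11* were not called (adjusted p = 0.917 and 0.532, limma).

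Matrix genes were mostly mural. Of 23 collagens and basement membrane genes, 18 were called higher in mural cells (median -4.55), and 17 of 17 in the cells. *Col3a1* was at 1.34, 2.22 and 7.66 against 5616, 5045 and 6849 (log2 difference -10.49 ± 0.52, adjusted p = 2.5e-05). *Bgn*, a small proteoglycan, was at 5.34, 15.5 and 18.8 against 19135, 15708 and 22234 (log2 difference -10.53 ± 0.46, adjusted p = 1.7e-05). *Nid1*, which links laminin to collagen IV, was at 292, 369.9 and 436 against 25744, 22148 and 26369 (log2 difference -6.09 ± 0.17, adjusted p = 5.4e-06). On the neural side were *Lama5*, at 509, 462 and 612 against 0.437, 3.42 and 70.4, and *Col18a1*, at 759, 739 and 740.3 against 118, 207 and 144, whose call was lost after the GC correction (0.82). Neither could be tested in the cells. There *Lama5* was at 0 CPM in both gates. *Col18a1* was at 6.64, 14.2 and 0 against 1.58, 22.5 and 137 CPM, higher in the mural gate when all plates were pooled (9.32 against 19.4).

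Of 15 integrin subunits, which form the receptors for this matrix, 9 were called higher in mural cells and 3 in neural cells, and of 8 in the single cells 7 and 1. *Itga1*, of a collagen receptor, was at 70.8, 73.1 and 59.7 against 25904, 21452 and 26019.7 (log2 difference -8.47 ± 0.14, adjusted p = 2.8e-06). *Itgb1*, the common beta subunit, was at 3957, 3889.6 and 3927 against 15559, 14904 and 20239 (log2 difference -2.09 ± 0.12, adjusted p = 4.3e-05). *Itgb8*, which activates TGF-beta and is known from radial glia, was at 2318, 2179 and 2314 against 223, 17.1 and 2.82 and was higher in neural cells in both assays (6.51 in bulk and 2.28 in the cells). *Itga3* (3.65) and *Itga2* (3.97) were the others, and the call of *Itga2* was lost without any 1 of the neural libraries (3.88 to 4.10).

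Among 18 mural transcription factors, 13 were called higher in mural cells (median -4.07), and 11 of 14 in the cells. *Heyl*, a Notch target, was at 10.7, 8.86 and 12.2 against 9133, 8483 and 13444 (log2 difference -9.79 ± 0.25, adjusted p = 4.9e-06). *Tbx18* was at 2.67, 9.97 and 7.13 against 1463, 1928 and 1466 (log2 difference -7.86 ± 0.47, adjusted p = 4.2e-05). *Ebf1* was present on both sides, at 1512, 1469.7 and 1254 against 15631, 13969 and 16077 (log2 difference -3.43 ± 0.10, adjusted p = 6.8e-06). *Nr2f2* was at 4168, 4155 and 3697 against 9253, 11434 and 7688 (-1.22), not called after the GC correction (-0.70) nor in the cells (-0.66).

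In 3 of these factors the neural libraries were higher. *Srf*, the factor of the CArG box, was at 6455, 6426 and 7389 against 492, 228 and 279 (log2 difference 4.41 ± 0.29, adjusted p = 6.1e-05), while in the cells the difference was 0.72 ± 0.25 and below 2-fold. *Ebf2* was at 1687, 1791 and 1505 against 111, 431 and 135, a call lost in a fit of all 12 bulk libraries with the difference unchanged. *Zic1* was at 9699, 9508 and 9348 against 3057, 3522 and 3418 in bulk (log2 difference 1.52 ± 0.076, adjusted p = 2.5e-05), but the cells held 313, 171 and 263 against 623, 780.5 and 605 CPM, higher in mural cells (-1.43 ± 0.27, adjusted p = 0.0002).

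**Figure D3:**
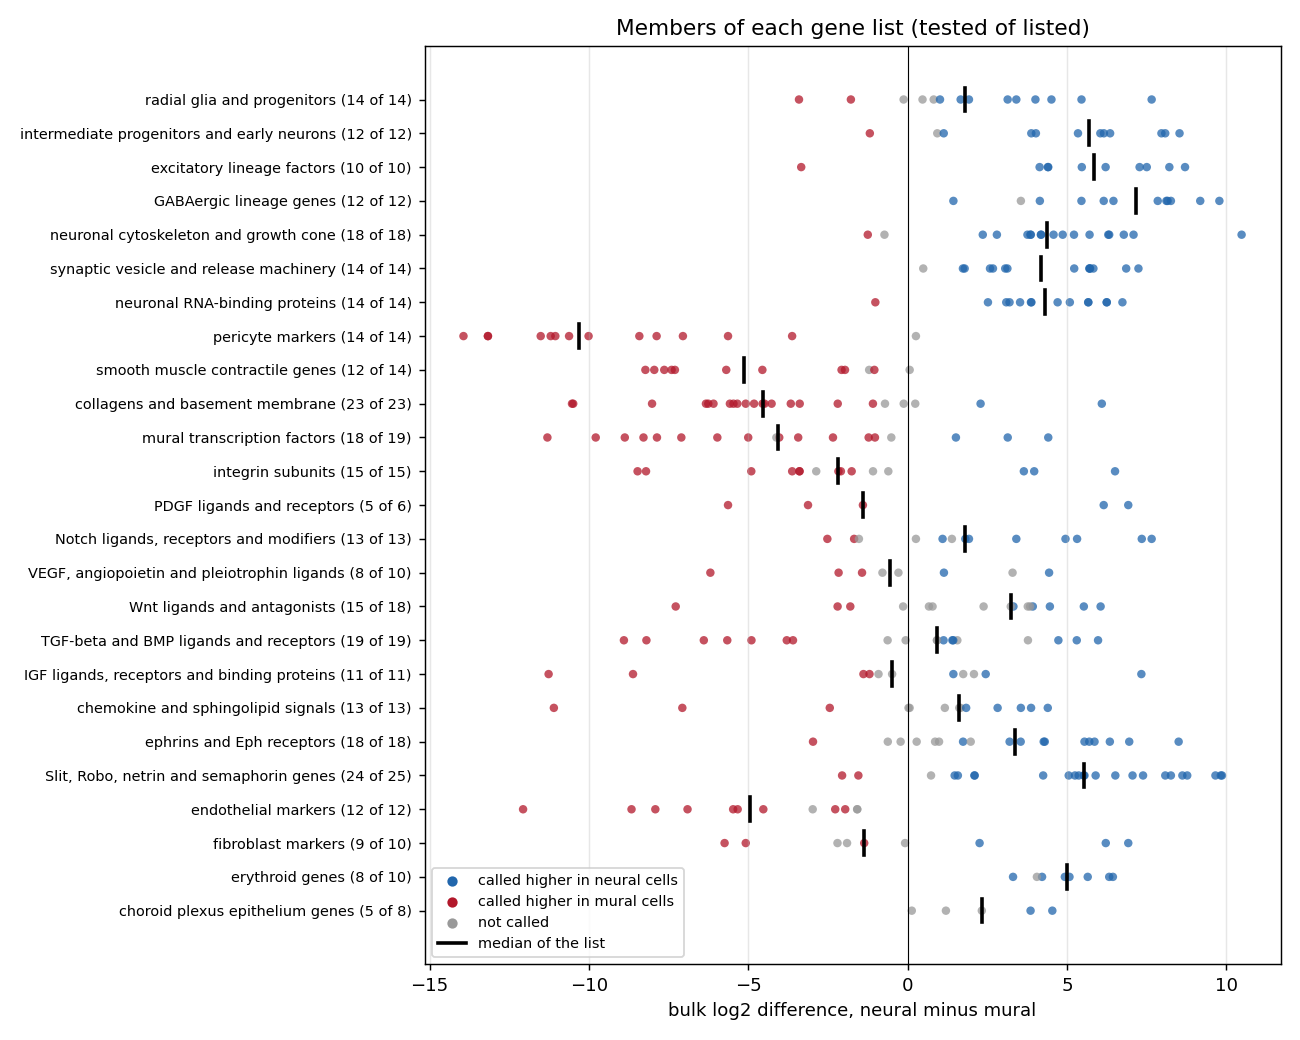
Bulk log2 differences (neural minus mural, x axis) of the members of each list with at least 5 tested genes, with the number tested of those listed in brackets. Blue points were called higher in neural cells, red ones in mural cells and grey ones not, and the black bar is the median, which runs from -10.3 for pericyte markers to 7.15 for GABAergic genes.

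Ligands and receptors through which such populations can signal were compared next. Of 5 PDGF genes tested, 2 were called neural and 3 mural in bulk, and 2 of 2 mural in the cells. The mural counts include the gated *Pdgfrb* in each assay, and *Pdgfa* is the other gene tested in the cells. *Pdgfra*, the receptor of glial precursors and fibroblasts, was at 159, 145 and 148 in neural libraries with 1 mural read, a ratio of 628 (112 to 24821). The ligand *Pdgfa* was higher in mural cells, at 228, 252 and 289 against 651, 824 and 577 (log2 difference -1.40 ± 0.20, adjusted p = 0.00136) and -1.51 in the cells. *Pdgfb*, the ligand that draws mural cells to vessels, was low on both sides, at 6.68, 12.7 and 10.3 against 187, 30.8 and 131 (log2 difference -3.12 ± 0.75, adjusted p = 0.0114). *Pdgfc* was at 373, 399 and 404 against 0, 167 and 0, and its call (adjusted p = 0.0392, limma) was lost under edgeR (2.80), DESeq2 (2.76) and without any library but Mu-343.

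In the Notch pathway, 8 of 13 genes were called higher in neural cells in bulk and 2 in mural cells, against 1 and 5 of 8 in the single cells. The ligand *Jag1* was at 1399.5, 1376 and 1252 against 4848, 3110.2 and 5243 (log2 difference -1.68 ± 0.21, adjusted p = 0.00079) and -2.42 in the cells. *Dlk1*, a noncanonical ligand, was at 1548, 1472 and 1340.0 against 7655, 7424 and 10102 (log2 difference -2.52 ± 0.14, adjusted p = 3.6e-05) and -3.36 in the cells. The bulk calls of *Jag1* and *Dlk1* were lost in a fit of all 12 bulk libraries, with the differences unchanged. *Mfng*, which modifies Notch receptors, was at 2483, 2535 and 2622 against 38, 97 and 0 (log2 difference 7.35 ± 1.69, adjusted p = 0.00972), and at 53.2, 47.3 and 21.9 against 4.75, 1.18 and 13.7 CPM in the cells, where it could not be tested. *Notch1* went in opposite directions, at 7700.0, 7235 and 8833 against 1683, 1913 and 2788 in bulk (log2 difference 1.93 ± 0.20, adjusted p = 0.00038) and at 31, 35.5 and 87.6 against 159.9, 145 and 165 CPM in the cells (-1.95 ± 0.33, adjusted p = 6.1e-05).

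Of 8 growth factors for vessels, 2 were called neural and 3 mural in bulk, shares near those over all genes. Of 5 in the cells 1 was called, mural, also near the share over all genes. *Vegfa* was at 2266, 2479 and 2594 in neural and 129.8, 119 and 90.2 in mural libraries (log2 difference 4.44 ± 0.18, adjusted p = 1.5e-05). The cells gave 35.4, 35.5 and 32.8 against 34.8, 23.6 and 41.2 CPM, and 0.24 ± 0.38 was not called (adjusted p = 0.671, edgeR). *Pgf*, placental growth factor, was higher in mural cells in both assays, at 44.1, 63.7 and 84.8 against 5228, 4099.8 and 4522 (log2 difference -6.19 ± 0.27, adjusted p = 1.7e-05) and -4.57 in the cells. *Angpt1*, the ligand of the endothelial receptor Tie2, was at 304, 316 and 258 against 1347, 1058 and 1579 (log2 difference -2.16 ± 0.19, adjusted p = 0.00019), a call lost in the fit of all 12 libraries. It could not be tested in the cells, at 0, 11.8 and 10.9 against 28.5, 21.3 and 13.7 CPM. Of the heparin-binding pair, *Ptn* was higher in mural libraries (-1.43) and *Mdk* was below 2-fold (-0.79, or -1.33 and called mural after the GC correction), and neither was called in the cells (-0.84 and 0.52).

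Of 15 Wnt ligands and antagonists, 5 were higher in neural and 3 in mural cells in bulk (median 3.24), shares near those over all genes. In the cells 2 of 7 were neural and 4 mural (median -1.28). *Wnt7b*, which signals to brain endothelium, was at 2975, 3156 and 3461 against 109, 57.1 and 50.7 (log2 difference 5.53 ± 0.31, adjusted p = 3.6e-05) and 3.80 in the cells. The antagonist *Dkk2* was at 12, 12.2 and 11.9 against 2693, 1367 and 2233 (log2 difference -7.28 ± 0.31, adjusted p = 1.6e-05) and -4.84 in the cells. The antagonist *Sfrp1* lay on the neural side (3.32 in bulk and 2.44 in the cells), with its bulk call lost in the fit of all 12 libraries.

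Of 19 TGF-beta and BMP genes, 6 were higher in neural and 7 in mural cells in bulk (median 0.92), the neural share near that over all genes, and of 5 in the single cells 1 each way. *Eng*, a coreceptor best known from endothelium, was at 5.34, 7.75 and 5.28 against 2930.1, 2719.9 and 4777 (log2 difference -8.90 ± 0.32, adjusted p = 1e-05). *Acvrl1*, its signalling partner, was at 2.67, 2.77 and 2.38 against 1154, 663 and 1532 (log2 difference -8.20 ± 0.40, adjusted p = 2.4e-05). *Tgfbr1* was higher in neural cells in both assays (1.40 in bulk and 1.12 in the cells). *Bmpr2* was alike, at 4380.1, 3975 and 4677 against 5262, 3813 and 4611 (-0.061 ± 0.14) and -0.0045 ± 0.24 in the cells.

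Of 11 genes of the IGF axis, 3 were called neural and 4 mural in bulk, shares near those over all genes, and of 8 in the cells 2 and 4. *Igf2*, an imprinted growth factor, was at 6.68, 6.09 and 12.7 against 2623, 3375 and 5076 in bulk (log2 difference -8.62 ± 0.39, adjusted p = 1.9e-05), and in the cells it reached 7109, 7059.7 and 5754 CPM in the mural gate against 119.6, 68.6 and 65.7 (-6.22 ± 0.30, adjusted p = 2.4e-11). *Igfbp7* was at 4.01, 6.09 and 2.38 against 10755, 9921 and 16702 (log2 difference -11.26 ± 0.36, adjusted p = 7.8e-06) and -6.06 in the cells. On the neural side were the receptor *Igf1r*, at 4781, 4209 and 5338 against 1095, 632 and 947 (2.45 in bulk and 1.69 in the cells), and *Igfbpl1*, at 13281, 12600.3 and 14447 against 33.2, 204 and 80.8 (7.34 in bulk and 4.66 in the cells).

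Among 13 chemokine, sphingolipid and endothelin genes, 5 were higher in neural and 3 in mural cells in bulk (median 1.62), shares near those over all genes. In the cells 1 of 4 was neural and 3 mural (median -5.13). The endothelin receptor *Ednra*, through which vessels contract, was at 9.35, 7.2 and 11.4 against 23093, 20036 and 23904 (log2 difference -11.10 ± 0.20, adjusted p = 3.1e-06) and -6.93 in the cells. *S1pr3*, a sphingosine phosphate receptor, was at 86.8, 99.7 and 112 against 12547, 8786 and 21834 (log2 difference -7.07 ± 0.34, adjusted p = 2.3e-05).

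Guidance genes were mainly neural in bulk. Of 24 Slit, Robo, netrin and semaphorin genes 21 were higher in neural cells (median 5.54), and of 18 ephrins and Eph receptors 11 (median 3.37). In the cells these were 7 of 11, with 3 called mural, and 6 of 8. *Ntn1*, which encodes netrin 1, went in opposite directions, with 2.10 in bulk and -1.58 in the cells. *Plxna4*, a semaphorin receptor, was at 4830.2, 4081 and 5791 against 21.8, 1.14 and 1.88 (log2 difference 9.87 ± 0.92, adjusted p = 0.00023), and *Ephb2* at 7846, 7774 and 8403 against 31.5, 4.57 and 58.2 (log2 difference 8.5 ± 0.86, adjusted p = 0.00032). *Efnb2*, which is also known from arteries, was higher in neural cells in both assays (3.20 in bulk and 1.23 in the cells). Receptors on the mural side were *Unc5b*, at 609, 563 and 649 against 3077, 2114 and 2465 (-2.06 in bulk and -4.89 in the cells), and *Nrp1*, at 2273, 2097 and 2469 against 6797, 5275 and 8154 (-1.54 in bulk and -1.38 in the cells), the latter not called in bulk after the GC correction (-0.86).

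Pairs of related genes were also compared. Of 39 pairs of paralogs that could be matched, 14 had 1 member called neural and the other mural in bulk, and 3 of these were called the same way for both members in the cells, among them *Tubb3* with *Tubb6* and *Tbr1* with *Tbx18*. *Tubb6*, a widely expressed beta-tubulin, was at 61.4, 52.6 and 53.1 against 6440.5, 7260.3 and 6971 (log2 difference -6.93 ± 0.13, adjusted p = 3.8e-06), the reverse of *Tubb3*. The 14 include *Pdgfra* with the gated *Pdgfrb*. They also include *Rgs2* with *Rgs5*, and the call of *Rgs2* (1.05) was lost under edgeR (0.98), DESeq2 (0.99) and quantile normalization (0.64) and without Mu-346 (0.92). The share of split pairs among unrelated genes was not computed.

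The KATP channel differed in both its parts. Neural libraries held *Kcnj11* at 507, 494 and 640.4 and *Abcc8* at 852, 821 and 1083, the pore and receptor known from neurons and beta cells. Mural libraries held them at 3.06, 0 and 13.1 and at 111, 4.57 and 86.4, while *Kcnj8* and *Abcc9* were mural, as given above. The call of *Abcc8* (adjusted p = 0.0148, limma) was lost without N-346 (4.46), and neither *Kcnj11* nor *Abcc8* could be tested in the cells.

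Further pairs were split in bulk, and in the cells their members were not called in opposite directions. The motor *Kif5c* was neural in both assays (5.22 in bulk and 4.56 in the cells), while *Kif5b* was mural in bulk (-1.32, or -0.64 and not called after the GC correction) and alike in the cells (0.15). Non-muscle myosin *Myh9* was mural in both (-1.97 in bulk and -4.52 in the cells), and *Myh10* neural in bulk alone (1.49 in bulk and 0.52 in the cells). For glycolytic enolases, *Eno2* was at 498, 507 and 520.2 against 12.2, 51.4 and 62 and *Eno1* at 4064, 4333 and 4797 against 16309.6, 16239.5 and 14431, where the cells gave -0.043 for *Eno1*, not called, and *Eno2* could not be tested. *Dpysl2* was mural in bulk (-2.15) and neural in the cells (1.44), and its relative *Dpysl5* was neural in both (7.09 in bulk and 4.15 in the cells).

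**Figure D4:**
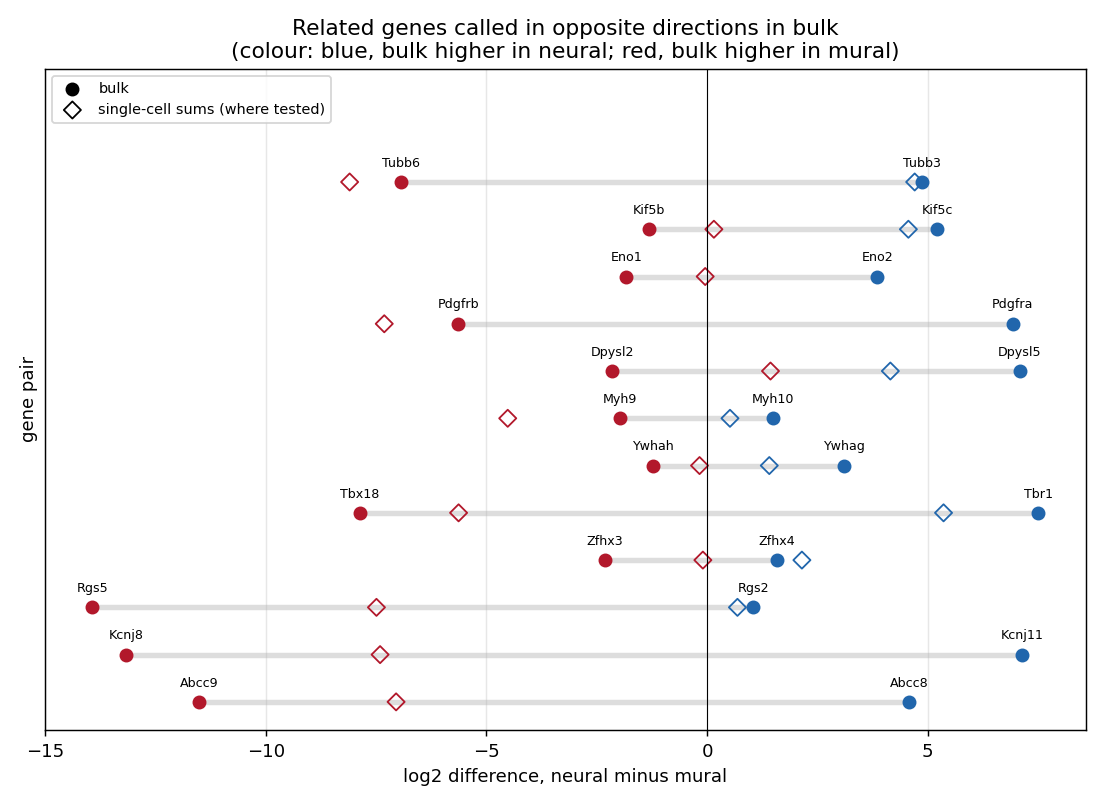
Shown are 12 of the 14 pairs of related genes called in opposite directions in bulk, 1 pair per line, with the log2 difference (neural minus mural) on the x axis. Filled circles are bulk differences, coloured by the side on which they lie, and open diamonds are single-cell differences of the same gene where tested. The mural member furthest to the left is *Rgs5* at -13.93, followed by *Kcnj8* at -13.17.

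Genes held in common were counted by their intervals. For 592 of 6377 genes (9.28%) the 95% interval of the difference lay within 2-fold either way in both assays. The chaperone *Hsp90ab1*, the most abundant of them, was at 63471, 66328 and 69272 against 71055, 80850.5 and 58693, with -0.07 ± 0.12 in bulk and -0.04 ± 0.22 in the cells. The glycolytic enzyme *Pkm* was at 21768, 22148 and 22199 against 22252, 21138 and 25243 (-0.05 in bulk and 0.21 in the cells). The splicing factor *Sf3b1* was at 20726, 20779 and 21175 against 20691, 20322 and 16792 (0.12 in bulk and 0.081 in the cells), and *Son*, of nuclear speckles, at 20544, 18151 and 22769.5 against 22508, 22063 and 20466 (-0.086 in bulk and 0.092 in the cells). The others were *Nedd4*, *Hspa8*, *Hnrnpk*, *Ptma*, *Rpl4*, *Hnrnpu*, *Atp5b* and *Gnb1*, with bulk differences from -0.71 to 0.49. Under quantile normalization *Hsp90ab1* (1.10) and *Hnrnpu* (1.06) were called higher in neural cells, and *Hnrnpu* was so after the GC correction (1.17). The count rested on both large plates, with 102 genes without plate 1 and 111 without plate 2.

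A small number of genes went in opposite directions. Of the 57, 41 were higher in neural cells in bulk and in mural cells in the cells and 16 the reverse. The count was 42 without plate 1, 27 without plate 2 and 106 without plate 3. The first kind had a median GC content of 55.3% and the second of 42.6%, against 48.6% for all genes tested in both. *Metrn*, a neurotrophic factor, was at 515, 547 and 542 against 46.8, 52.5 and 62 (log2 difference 3.30 ± 0.21, adjusted p = 5.8e-05) and in the cells at 13.3, 21.3 and 0 against 60.2, 35.4 and 54.9 CPM (-1.62 ± 0.47, adjusted p = 0.00807). *Erf*, a repressor of the ETS family, was at 1298, 1327 and 1445 against 256, 193 and 219.8 (log2 difference 2.61 ± 0.16, adjusted p = 4.6e-05) and in the cells at 11.1, 9.47 and 10.9 against 39.6, 28.3 and 41.2 CPM (-1.70 ± 0.48, adjusted p = 0.00679).

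Among the 10 with the largest bulk difference, 4 were predicted gene models still to be tested experimentally (biotype TEC) inside *Auts2*, on the same strand of chromosome 5. Of all 832 TEC models tested in bulk, 354 were called mural and 93 neural (median -2.38), while of 44 tested in the cells 10 were called mural and 9 neural (median 0.36). *Gm42992* was at 0, 0 and 0.528 against 239, 212 and 1066 in bulk, a ratio of mural to neural of 1401 (387 to 11575), and in the cells at 111, 166 and 76.6 against 26.9, 41.3 and 41.2 CPM (1.85 ± 0.31, adjusted p = 6e-05). *Gm42993* (-7.02 in bulk and 1.37 in the cells), *Gm42991* (-6.56 in bulk and 1.91 in the cells) and *Gm43187* (-3.77 in bulk and 2.87 in the cells) did the same. *Auts2* itself, a neurodevelopmental gene looked at for this reason, was higher in neural cells in both assays, at 12548, 12502 and 13266 against 1144, 1649 and 1473 (3.18 in bulk and 3.0 in the cells). How reads of overlapping models were assigned is not given in the sources used here. *Gm43201*, inside *Lcorl*, and *4632427E13Rik* went the same way as these models (-4.94 in bulk and 2.20 in the cells, and -3.07 in bulk and 1.69 in the cells).

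The microRNA hosts printed above were part of the contrast. *Mir9-3hg* was at 1914, 2107 and 2245 against 235, 341 and 152 (log2 difference 3.17 ± 0.30, adjusted p = 0.00025). The hosts of miR-124, a neuronal microRNA, were also neural, with *Mir124a-1hg* at 4751, 5067 and 4377 against 0.874, 5.71 and 16 (9.63 in bulk and 5.57 in the cells) and *Mir124-2hg* at 3385, 3324 and 2745 against 166, 604 and 77 (3.98 in bulk and 5.36 in the cells). *Mir22hg* was higher in mural libraries, at 29.4, 33.2 and 35.7 against 350.4, 649 and 425 (log2 difference -3.77 ± 0.31, adjusted p = 0.00014). *Mir99ahg*, which carries miR-99a, let-7c and miR-125b, was among the opposite genes. It was at 406, 406 and 324 against 3475, 4216 and 4168 in bulk (log2 difference -3.38 ± 0.15, adjusted p = 1.7e-05) and at 272, 213 and 87.6 against 108, 95.7 and 68.6 CPM in the cells (1.12 ± 0.26, adjusted p = 0.00176). *Mir17hg* and *Mir670hg* were not called (3.27 and 3.70), but both were called neural with a pseudocount of 10 (2.53 and 2.41), without Mu-340 (1.53 and 5.01) and without Mu-343 (4.33 and 2.04), and *Mir670hg* also after the GC correction (4.11).

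Some classes of RNA differed together in bulk, and the cells did not show the same. All 13 mitochondrial messenger RNAs were called higher in mural libraries (median -3.53), 9 of them after the GC correction, and under quantile normalization 9 were and 1 was called neural, while 0 of 13 were called in the cells (median -0.075). They made up between 1.33% and 1.42% of neural and between 6.18% and 11.2% of mural counts. *mt-Cytb*, a subunit of complex III, was at 75236, 77369.6 and 75347 against 1445630.0, 1967690.0 and 988357 (log2 difference -4.22 ± 0.24, adjusted p = 3.7e-05) and at -0.067 in the cells. *mt-Co1* (-1.55) was the gene that turned under quantile normalization (1.26). Of 40 replication-dependent histone genes, 27 were higher in mural and 2 in neural libraries, and of the 6 tested in the cells 2 were called each way. *Hist1h1e* was at 10.7, 15.5 and 33.3 against 822, 743 and 451 (-5.12) and 0.37 in the cells, and *Hist1h2bc* was mural in both (-4.03 in bulk and -2.31 in the cells).

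*Gm42418*, a noncoding gene that overlaps the ribosomal RNA repeat (chromosome 17 from 39846958 to 39848788 on mm10), was at 16359, 13408 and 18781 in neural libraries and at 0 in all mural ones, at least 22814-fold higher, but in the cells it was at 11958, 5291 and 2076 against 6715, 15338 and 5235 CPM and was not called (edgeR adjusted p = 0.361). The 5 single genes named from these classes were picked after their values were seen. Of 1155 processed pseudogenes, 559 were called mural and 130 neural in bulk. Cytosolic ribosomal protein genes differed little, with 4 neural and 13 mural calls of 80 and 0 of 70 in the cells.

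Transcript composition moved with the bulk differences. Genes tested in both assays were divided into 5 bins of equal size. From the lowest to the highest bin of GC content, the median bulk difference went from -0.17 to 0.82, and that of the cells from 0.28 to -0.029. From the shortest to the longest bin of exon length it went from -1.07 to 0.79 in bulk and from -0.083 to 0.31 in the cells. The part of exon length in the results was not tested. After the GC correction, 863 genes were higher in neural cells in both assays, of which 799 were shared with the 815, and 733 in mural cells, of which 698 were shared with the 726. The opposite genes were then 47, of which 40 were shared.

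**Figure D5:**
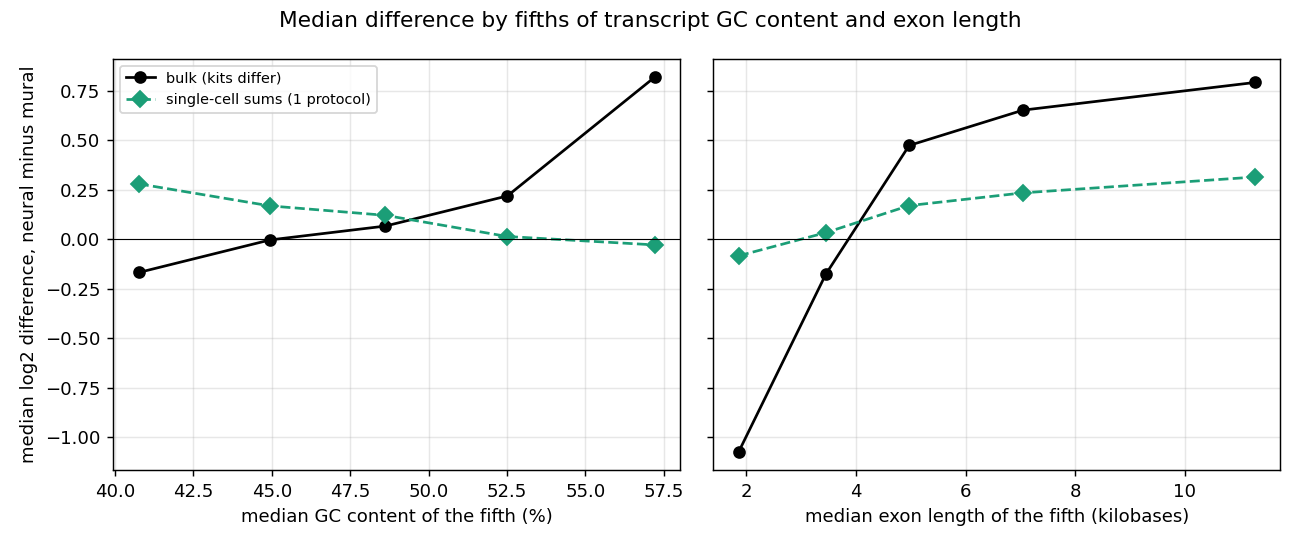
Median log2 difference (neural minus mural, y axis) of the genes tested in both assays, by 5 bins of transcript GC content in percent (left) and of exon length in kilobases (right). The bulk line, where kits differ, rises from -0.17 to 0.82 and from -1.07 to 0.79, and the line of single cells, where they do not, stays between -0.083 and 0.31.

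Markers of other cells were checked in both populations. The 12 endothelial markers summed to 150 to 200 in neural and 12181 to 16543 in mural libraries, against 235217 to 269491 in sorted endothelial cells, and 9 of 12 were called higher in mural cells. Most of the mural sum came from *Emcn*, *Esam* and *Tek*. *Emcn* was at 6317, 3837 and 4561 in sorted endothelial libraries, overlapping its mural values of 5508, 4466 and 4967. *Esam* and *Tek* were higher in sorted endothelial than in mural libraries. *Esam* was at 4459, 3017 and 5404 in mural libraries and at 193, 174 and 179 CPM in the mural gate of the single cells. *Cdh5* and *Icam2* were not called, at 21, 44.5 and 0.939 and at 0, 131 and 0 in mural libraries, and *Cdh5* was called mural without Mu-346 (-2.92). *Icam2*, which encodes CD102, and *Pecam1* were gated against in both populations, so they are no independent check. The 12 microglial markers summed to 12.2 to 21.4 in neural and 81.7 to 124 in mural libraries, against 383973 to 407108 in microglia. *Csf1r*, the only member tested, was called mural in bulk (log2 difference -6.33 ± 0.41, limma adjusted p = 5.5e-05). It was at 0, 0.554 and 0 against 74.3, 108 and 97.7. *C1qc* and *Trem2* were at 0 in all 6 libraries, and this list holds *Ptprc* (CD45) and *Itgam* (CD11b), which were gated against too. In the cells the list summed to 24.4, 14.2 and 208 CPM in the neural and 99.7, 115 and 27.5 in the mural gate.

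Border macrophage markers summed to 325 to 994 in mural libraries and to 2.67 to 3.96 in neural ones, led by *Mrc1* at 727, 380.1 and 155 and *Lyve1* at 268, 109.6 and 170.0 in mural libraries, with *Pf4* and *Ms4a7* at 0 in all 6. Fibroblast markers summed to 1476 to 1659 in neural and, without overlap, to 1718 to 2624 in mural libraries. Of these markers 3 of 9 were called each way, shares near those over all genes. In the cells they summed to 10.9 to 56.8 against 102 to 151 CPM, and both members tested were called mural. *Col1a1* and *Ogn* were higher in mural (-5.08 and -5.74) and *Cemip* in neural libraries (6.22). Erythroid genes stood higher in neural libraries, at 9161 to 11969 against 253 to 598, and 7 of 8 were called. *Hbb-bs* was at 4086, 4560.2 and 6030.1 against 47.2, 111 and 39.4 (log2 difference 6.33 ± 0.42, adjusted p = 6.1e-05), and globin copies can share reads. Choroid plexus genes summed to 2348 to 3007 against 92.05 to 390, carried by *Otx2*, with *Ttr* at 16, 6.09 and 8.45 against 24.5, 33.1 and 0. The part of these cells in the results was not tested.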

How the data were processed

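For bulk libraries the authors deposited normalized counts, treated here as a signal on a linear scale. Low values were whole multiples of 1 read (100% of 124078 within 0.01), so whole reads were recovered for edgeR and DESeq2. The submitters' processing notes name BWA 0.6.2-r126, STAR, featureCounts, DESeq2 and mm10, with no role or order. For single cells the authors deposited estimated counts of transcripts per well, here summed per gate and plate and rounded. Of 53465 bulk gene IDs, 99.8% are in GENCODE M21, and symbols joined the assays.

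Bulk libraries were compared with limma 3.58.1 (trend, R 4.3.3) on log2(normalized count + 1), for genes with a mean of at least 10, and sums with edgeR 4.0.16 (TMM, its own low-count filter). Tests were two-sided. DESeq2 1.42.0, Python 3.11.15, pandas 2.3.3 and numpy 2.4.6 were also used, and the fits were tested on simulated data. Same-numbered libraries were taken as 1 brain. Residuals of the populations correlated at 0.064, 0.038 and 0.039 within brains and at 0.036, 0.015 and 0.038 within plates. *Xist* and Y-linked genes set N-340 and Mu-340 apart from the other libraries of their population.

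The members and lists were chosen with earlier results of these data known. Genes named are the 12 furthest each way called in both assays, up to 6 per list with exceptions, the 12 most abundant at a like level, the 10 opposite genes with the largest bulk difference, paralog pairs, microRNA hosts and sex-linked genes, and a few chosen after their values were seen. The GC correction removed, in each library, the median log2 value of each of 20 bins of transcript GC content. Other alternatives are given with their effect below. Counting intervals and floors (3 reads) cover counting error only. Promoters, by symbol, were found for 633 of 815 and 548 of 726 genes. Some genes that the rule names are not reported here.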

Additional observations from a re-analysis of the deposited data

Results flagged for a closer look

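In 9 of the 10 named genes with opposite calls, every bulk library lay on one side and every single-cell sum on the other, which their choice by opposite calls largely fixes. The bulk differences (neural minus mural) were -8.36 for *Gm42992*, -7.02 for *Gm42993*, -6.56 for *Gm42991*, -4.94 for *Gm43201*, -3.77 for *Gm43187* and -3.07 for *4632427E13Rik*, each with neural cells higher among single cells. They were 3.30 for *Metrn*, 3.24 for *Atp8b2* and 2.61 for *Erf*, each with mural cells higher among single cells. The difference between the assays itself was not tested, and it cannot be told apart from that of their protocols.

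In a gate outside the comparisons, cells with medium or low PDGFRβ, 14 on plate 1 and 9 on plate 2, gave summed pericyte markers of 2645 and 5579 CPM, above the 157 and 94.7 CPM of the neural gate and below the 13273 and 14299 CPM of the mural gate on the same plates. The same cells gave summed radial glia markers of 17693 and 2517 CPM, above the 1986 and 1746 CPM of the neural gate and the 1942 and 1043 CPM of the mural gate.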

How the results depend on the processing

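Which side held more calls depended on the setting. In bulk it turned from 5704 neural against 4606 mural to 4925 against 5548 under quantile normalization and 4970 against 5008 under edgeR. In the cells it turned from 1086 against 1014 to 700 against 846 under DESeq2 and 938 against 1126 with a minimum of 3000 transcripts, and in both assays from 815 against 726 to 757 against 772 under quantile normalization. At 10-fold, bulk calls were 2671 neural and 1835 mural, single-cell calls 217 and 350, shared calls 176 and 267, and opposite calls 0, where at 2-fold there were 57. With no low-count filter in the cells, 1552 neural and 1773 mural genes were called there at 2-fold, 1226 and 1241 were shared by both assays and 105 were opposite. Intervals within 1.5 on the log2 scale left 2033 genes at a like level. Leaving out 1 library or plate gave 4707 to 6005 neural and 4208 to 4786 mural genes in bulk, 472 to 1291 and 689 to 1491 in the cells, 405 to 1025 and 521 to 1003 in both, 27 to 106 opposite and 102 to 729 at a like level. The cause was not tested.

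With a replicate block for brain and plate, bulk calls were 5624 and 4407, single-cell calls 1076 and 1005, shared calls 809 and 723, opposite calls 59 and like genes 525. It changed no call among 214 named genes. The GC correction, with or without the block, was added after seeing the data, and moved the median of all genes from 0.249 to 0.424 (quantile normalization to -0.093, edgeR to -0.006). Differences turned and passed the threshold for *Notch3* (-1.21 under the GC correction with and without the block), *Hsp90ab1* (1.10) and *mt-Co1* (1.26) under quantile normalization, and *Ttr* without Mu-346 (-1.5, within a range up to 1.05 when other libraries were left out), and the cause was not tested. Fitted with all 12 bulk libraries, *Angpt1*, *Dkk3*, *Dlk1*, *Ebf2*, *Jag1*, *Sfrp1* and *Sp8* lost their calls with the differences unchanged. Outside the sex-linked genes, 25 named genes lost their call under some alternative, 11 gained one, and differences that passed no threshold changed sign for 17. Under their different filters, 6680 genes could be tested in the single cells and 18188 in bulk.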
